A study of Mus musculus with 3 samples.

Results

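Zic1, Zic4 and Neurod1 encode transcription factors of neurons, and each carried a PHF10 ChIP-seq site near an annotated start in adult mouse brain. The members were chosen by having a peak, as every peak within 1000 bp of a transcription start site (TSS) of these 3 genes in GENCODE M21, with any peak between the neighbouring Zic1 and Zic4 genes. This gave 3 of the 251 peaks of replicate 1 and 3 of the 141 peaks of replicate 2. After peaks sharing at least 1 bp were merged, they made up 3 of 303 sites, 1 at each gene, and no further peak was listed between Zic1 and Zic4. The presence of a peak and its values are therefore a description and not a test.

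The experiment comprised 2 PHF10 immunoprecipitations, described as biological replicates in the study's methods, and 1 IgG immunoprecipitation labelled as the preimmune control. All came from brain of C57BL/6 mice (C57BL/6J males in the study's methods) at 120 days after birth, carrying no treatment or engineered allele in the labels, and the protocol took the brain of 1 mouse for an immunoprecipitation. PHF10 was precipitated with a non-commercial rabbit antibody that, in the study's description, recognises all isoforms of the protein. The sample labels name brain and the methods whole brain, whereas the design text of the series and the peak names point to cerebellum and the design text to a younger age, and these sources do not settle which was used. Whole brain mixes neurons and glia, and the signal at a site cannot be assigned to a cell type. The data held a single condition, and both replicates were set against the same IgG library, so that no comparison between conditions was possible.

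PHF10 is a subunit of PBAF, a SWI/SNF chromatin remodelling complex that uses ATP to move or evict nucleosomes and acts at promoters and enhancers. ZIC proteins bind DNA through C2H2 zinc fingers. Zic1 and Zic4 lie head to head as neighbours, are expressed in granule neurons and their progenitors in the cerebellum, and are needed together for normal growth of the cerebellum. NeuroD1 is a basic helix-loop-helix (bHLH) factor that binds E-boxes as a dimer with a ubiquitous bHLH partner, drives the differentiation of neurons, and is needed for granule neurons of the cerebellum and the dentate gyrus.

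The mm10 sequence under the peaks is shown first, because the 2 Zic sites shared a feature that the Neurod1 site lacked. The Zic4 peaks of both replicates lay over the following bases of the plus strand at chr9:91367837-91368058, which are given up to the nearest start of a predicted RefSeq exon, with runs of at least 4 CT dinucleotides in capitals.
Zic4: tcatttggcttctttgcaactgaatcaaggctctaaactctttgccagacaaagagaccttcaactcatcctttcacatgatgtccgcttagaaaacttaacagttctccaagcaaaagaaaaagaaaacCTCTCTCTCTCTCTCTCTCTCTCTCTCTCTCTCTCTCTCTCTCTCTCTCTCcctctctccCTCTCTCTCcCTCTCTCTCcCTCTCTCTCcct
The Zic1 peaks lay in an exon, so only short windows are printed, on the minus strand that the gene is transcribed from. The first holds the edge of a GA tract (chr9:91365500-91365529, tract in capitals), and the others hold the summits, the positions of highest signal, of replicate 1 (chr9:91365431-91365460) and replicate 2 (chr9:91365473-91365502), with the summit base in capitals.
Zic1 tract edge: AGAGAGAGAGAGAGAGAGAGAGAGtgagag
Zic1 summit, replicate 1: cgctgcgcgaggagaCagggcgagcagtgg
Zic1 summit, replicate 2: gagagagagagactgAgactagtggagaag
The Neurod1 windows, on the minus strand of that gene, show the summits of replicate 1 (chr2:79456621-79456650) and replicate 2 (chr2:79456590-79456619), and the bases with a TATATA match in capitals (chr2:79456650-79456679). They hold no CT or GA tract.
Neurod1 summit, replicate 1: cgcgccaccgggacaCgaggaattcgccca
Neurod1 summit, replicate 2: gcagaaggcaaggtgTcccgaggctccagg
Neurod1 TATATA: cagcaactcggcTATATAaccctagcgccc

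Each deposited peak has a fold enrichment, which is the signal at the summit over the IgG background, and −log10 of a p value and of a q value, the latter corrected over the genome by the peak caller. The fold and the p value together fix a whole number of fragments over the summit, which could be solved for all 251 and 141 peaks. The PHF10 libraries were deeper than the IgG library, 1.38 times (replicate 1) and 1.14 times (replicate 2), and IgG covered the genome with a background of 1.85 fragments. The median peak had a fold of 5.85 from 22 fragments in replicate 1 and 6.18 from 20 fragments in replicate 2. Bracketed ranges below are 95% exact Poisson intervals, which cover counting error only and take the IgG background as fixed.

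Zic4 (ENSMUSG00000036972.14, chromosome 9, 91362413 to 91389348, plus strand) had the highest values of the 3 genes. In replicate 1 the peak from 91367832 to 91368202 (371 bp, summit at 91367957) had a fold of 10.8 (7.82 to 14.5), with −log10 values of 25.2 for p and 18.6 for q, and ranked 5th of 251 by fold. In replicate 2 the peak from 91367837 to 91368118 (282 bp, summit at 91367948) had a fold of 9.65 (6.71 to 13.5), with −log10 values of 21.9 for p and 15.6 for q, and ranked 11th of 141. Both summits were covered by more fragments than the median peak of their replicate, with 41 (29.4 to 55.6) in replicate 1 and 32 (21.9 to 45.2) in replicate 2. Scaled to the depth of the IgG library these were 29.7 and 28.0 fragments, so the 2 libraries differed less in scaled signal than in raw number. The background from the shared IgG library was 1.85 and 2.00 fragments at the 2 summits, in the same order. The genome-wide level is 1.85, so the IgG value at the summit of replicate 2 was slightly above that level. The mean fold was 10.2 ± 0.778 (SD, n = 2), 6th of all 303 sites.

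Zic1 (ENSMUSG00000032368.14, chromosome 9, 91358058 to 91365810, minus strand) had an intermediate site. The peak of replicate 1 spanned 91365378 to 91365617 (240 bp, summit at 91365445), with a fold of 5.93 (3.85 to 8.80), and −log10 values of 9.80 for p and 4.45 for q. The peak of replicate 2 spanned 91365377 to 91365757 (381 bp, summit at 91365487), with a fold of 6.79 (4.34 to 10.2), and −log10 values of 12.8 for p and 7.09 for q. The peak was thus near the median fold of its list in replicate 1 (96th of 251) and in the upper part in replicate 2 (38th of 141), where it was also the 9th widest. The 2 summits were covered by 22 (13.8 to 33.3) and 21 (13.0 to 32.1) fragments over the genome-wide IgG background of 1.85. The mean fold of 6.36 ± 0.606 (SD, n = 2) ranked 87th of 303 sites.

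Neurod1 (ENSMUSG00000034701.9, chromosome 2, 79452521 to 79456751, minus strand) had the lowest values. The peak of replicate 1 spanned 79456488 to 79456687 (200 bp, the smallest width listed, summit at 79456635), with a fold of 5.40 (3.47 to 8.07), and −log10 values of 9.32 for p and 4.11 for q. The peak of replicate 2 spanned 79456475 to 79456697 (223 bp, summit at 79456604), with a fold of 5.87 (3.67 to 8.98), and −log10 values of 10.3 for p and 4.82 for q. These folds were below the median peak of each replicate, at rank 169 of 251 and rank 90 of 141. They rested on 21 (13.0 to 32.1) and 19 (11.4 to 29.7) fragments over 2.00 IgG fragments in both replicates. The mean fold of 5.63 ± 0.334 (SD, n = 2) ranked 172nd of 303 sites.

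**Figure D1:**
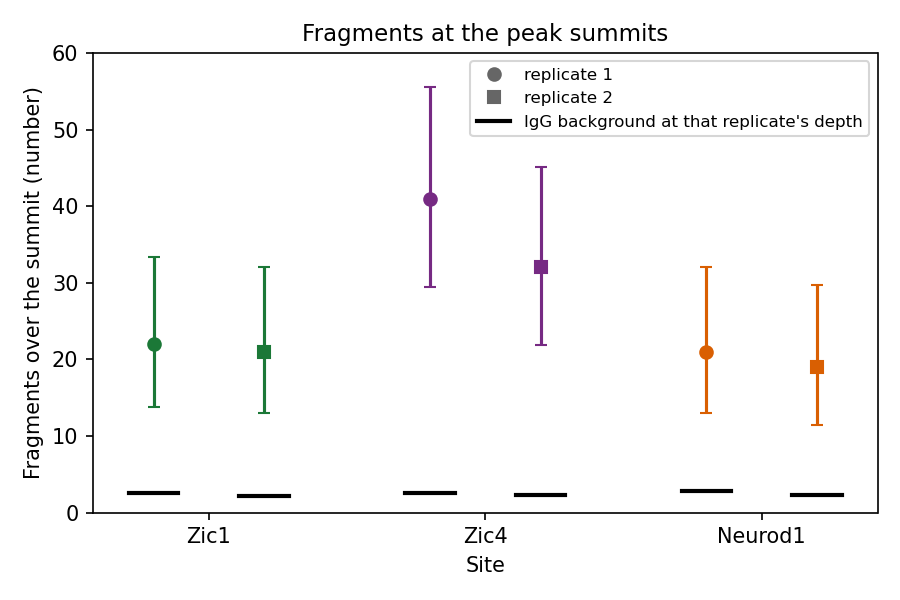
Fragments over the peak summits (y axis, number) at the Zic1, Zic4 and Neurod1 sites (x axis) in replicate 1 (circles) and replicate 2 (squares), with 95% exact Poisson intervals for counting error. Black bars give the IgG background scaled to the depth of that replicate, which lies between 2.12 and 2.77 fragments, while the summits hold 19 to 41 fragments.

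In both replicates the order of the folds was Zic4, Zic1, Neurod1. Zic4 had 1.86 times the fragments of Zic1 in replicate 1 (95% interval of the ratio, 1.08 to 3.29) and 1.52 times in replicate 2 (0.852 to 2.78). Against Neurod1 the ratios were 1.95 (1.13 to 3.48) and 1.68 (0.926 to 3.14). The intervals for Zic4 lay above 1 in replicate 1 and included 1 in replicate 2. For Zic1 against Neurod1 the ratios were 1.05 (0.550 to 2.00) and 1.11 (0.566 to 2.17), with 1 inside both intervals. Because the members were chosen by their peaks, these intervals describe counting error and are not a test.

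All 3 sites had a peak in both replicates, as had 89 of the 303 merged sites (29.4%). The fold of replicate 2 over that of replicate 1 was 0.898 at Zic4, 1.14 at Zic1 and 1.09 at Neurod1. Over the 89 shared sites the median of this ratio was 0.974, the lowest 0.589 and the highest 1.91. The summits of the replicates lay 9 bp apart at Zic4, 31 bp at Neurod1 and 42 bp at Zic1, where the median over shared sites was 34 bp. The replicates were therefore about as close to each other at these genes as at a typical shared site, and the Zic4 summits were closer. Among the shared sites alone, whose median mean fold was 6.64, Zic4 ranked 6th, Zic1 56th and Neurod1 75th of 89.

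**Figure D2:**
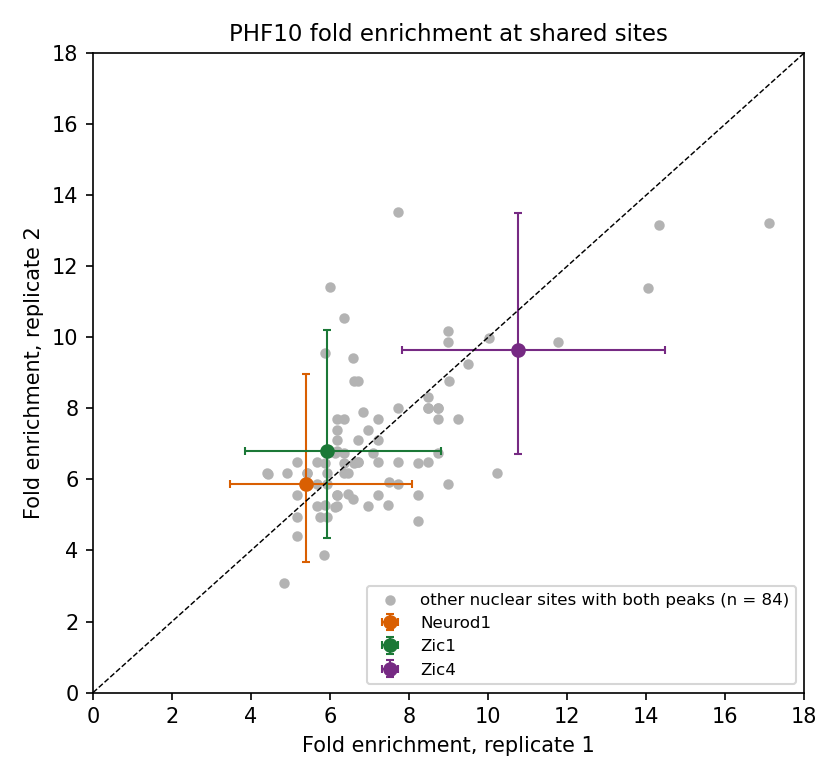
Fold enrichment in replicate 1 (x axis) and replicate 2 (y axis) at nuclear sites with a peak in both replicates, with Zic1, Zic4 and Neurod1 in colour, their 95% counting intervals as bars, and equality as a dashed line. Zic4 lies at 10.8 and 9.65 on the 2 axes, and Zic1 and Neurod1 lie among the bulk of the sites at folds between 5.40 and 6.79.

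In the order of all mean folds, Zic4 stood between the sites of Tob1, an antiproliferative gene (10.6 ± 4.12), and Rnu1a1, a U1 snRNA gene (10.0 ± 0.0182), and it differed from neither beyond the spread of the replicates. Zic1 followed Siah2, a ubiquitin ligase gene (6.37 ± 1.54), and the site of the microRNA gene Mir124a-3 (6.38 ± 1.16). Neurod1 preceded Rps6, a ribosomal protein gene (5.58 ± 0.419). The mean folds around Zic1 and Neurod1 were dense, and the difference to these neighbours was smaller than the SD of the replicates.

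The position of the sites relative to the gene starts differed between members. The Zic1 peaks lay downstream of the start and wholly within the 5′ UTR exon of the transcript Zic1-201. Its TSS at 91365768 was 11 bp from the site, with the summits 323 bp (replicate 1) and 281 bp (replicate 2) downstream. The start of a further transcript, Zic1-202, at 91365810 was 53 bp from the site, and that of Zic1-203 lay 2323 bp away, within the gene.

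The Zic4 peaks lay upstream of the gene's main cluster of starts and overlapped no GENCODE exon. Of the 12 annotated Zic4 TSSs, 4 were within 1000 bp. The nearest, of Zic4-206 at 91368367, was 165 bp from the site, and the summits were 410 and 419 bp upstream of it. The others were 610, 692 and 768 bp away. One long transcript, Zic4-208, starts at 91362413 inside Zic1, and for this reason both Zic sites also lie in a Zic4 intron.

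The Neurod1 peaks lay at the start of the gene. The GENCODE TSS at 79456751 was 54 bp from the site, with the summits 116 and 147 bp downstream, and 137 of 200 bp (replicate 1) and 147 of 223 bp (replicate 2) lay in the first, untranslated exon. In RefSeq the TSS is annotated at 79456636, and there the summits were 1 and 32 bp downstream. The distance to the start thus depended on the annotation, and the RefSeq start lay within the peaks of both replicates. A transcript of Cerkl, a ceramide kinase-like gene (ENSMUSG00000075256.9), starts at 79456785, which is 88 bp from the site and on the same strand, and covers the same exonic bases, so the site cannot be assigned to Neurod1 alone. An intron of the lincRNA Gm26755 overlaps it on the opposite strand.

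**Figure D3:**
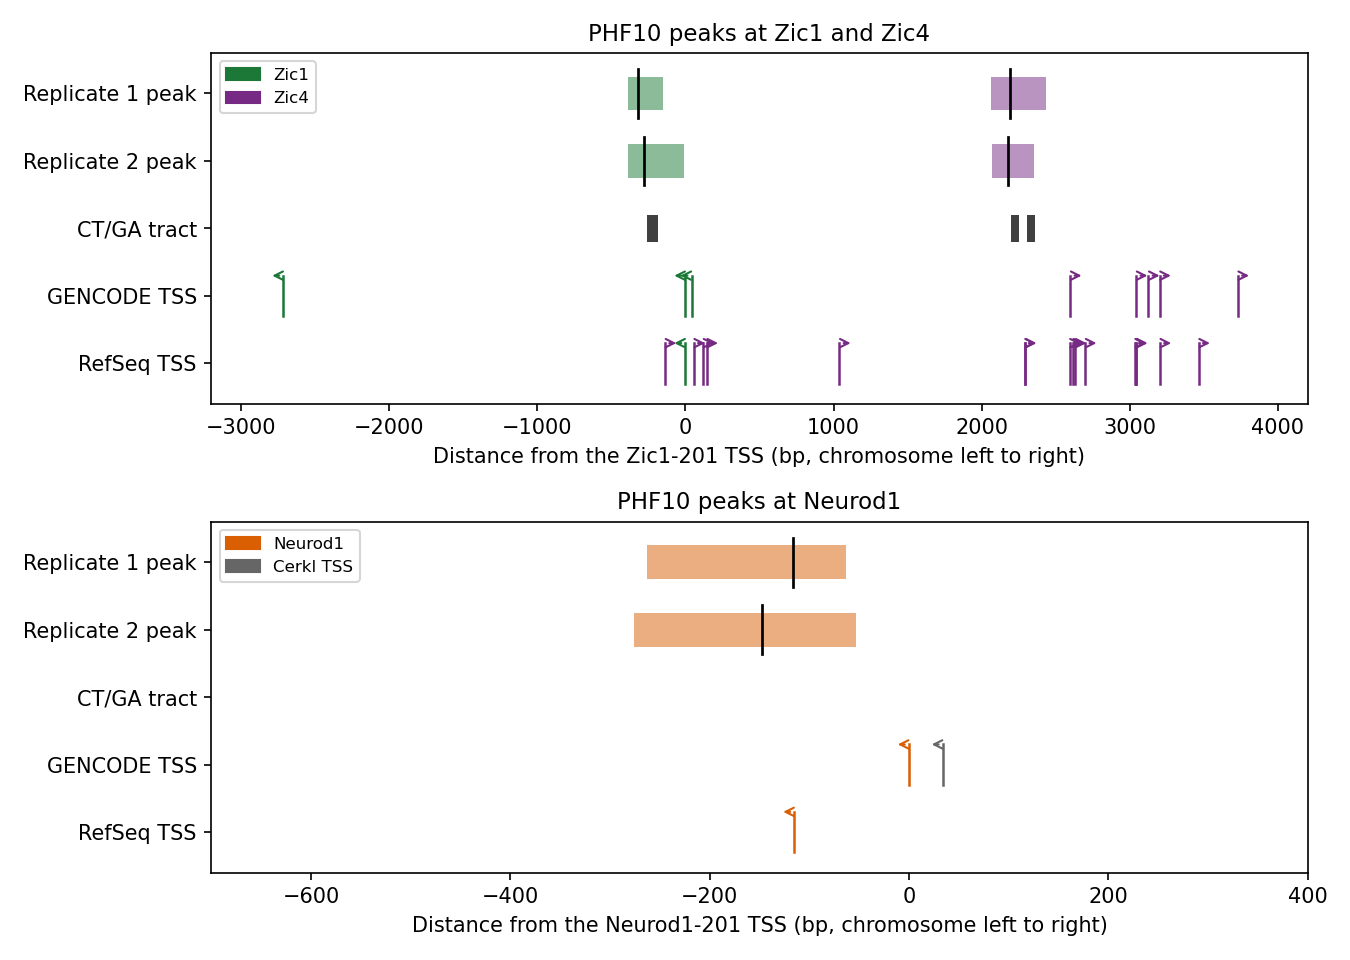
PHF10 peaks of both replicates (boxes, with the summit as a black line), CT/GA tracts of at least 20 bp, and GENCODE and RefSeq TSSs (ticks, with an arrow for the direction of transcription), plotted by distance in bp from the Zic1-201 TSS (top) or the Neurod1-201 TSS (bottom). The Zic1 and Zic4 sites are separated by 2074 bp and each holds 2 tracts, and the Neurod1 site has none and spans the RefSeq start.

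Whether the Zic pair shared a site was asked next. The sites were separate, with 2074 bp without a peak between them and the summits 2512 bp (replicate 1) and 2461 bp (replicate 2) apart. The nearest GENCODE start of Zic4 was 2610 bp from the Zic1 site, and the nearest start of Zic1 was 2022 bp from the Zic4 site, so that 0 sites were within 1000 bp of a start of both genes. The answer changed with the annotation. RefSeq lists 22 distinct Zic4 starts, most from predicted models, and 4 of them lay within 1000 bp of the Zic1 site, including a predicted start at 91365631 inside the peak of replicate 2. With these models the Zic1 site was shared, and with curated RefSeq transcripts only it was not. Predicted Zic4 starts at 91368059 and 91368063 also lay inside the Zic4 peak, 102 and 111 bp downstream of the summits for the first of them.

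Pairs of sites this close were few. Among the 301 nuclear sites, 4 neighbouring pairs were within 5000 bp, and 2 of these had peaks of both replicates at both sites, namely the Zic pair and the pair at the snRNA genes Rnu1a1 and Gm22068. Beyond the Zic locus the nearest sites were at Phip, 8386643 bp to the left of the leftmost Zic4 start, and at Alas1, 14865311 bp to the right of the rightmost. The Neurod1 site stood alone. The next sites were at Cers6, 10595136 bp to the left of the Neurod1 start, and at Pax6, 26216164 bp to its right.

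Sequence was not used in choosing the members, and their GC content was lower than that of most PHF10 sites. In 200 bp at the summit, GC content was 46% at Zic4, 55% at Neurod1 and 55.5% at Zic1, where the median of the 301 nuclear sites was 67%. All 3 were in the lower part of the distribution, at rank 296 (Zic4), 257 (Neurod1) and 254 (Zic1) from the highest. The ratio of observed to expected CpG, which is near 1 in unmethylated CpG islands, was 0.164 at Zic4, 0.744 at Zic1 and 1.09 at Neurod1, and its median over sites was 0.915. A GC content of at least 50% with a ratio of at least 0.6, as in CpG islands, was found at 256 sites (85.0%) and at 49.0% of 21936 protein-coding TSSs (the first-numbered transcript of each gene). The Zic1 and Neurod1 windows met both limits, as most sites did, whereas Zic4, with the highest fold of the 3, met neither. The Zic windows include bases of the CT tracts described below, which hold no CpG, so their composition is not independent of the tracts. Over the whole merged site, Neurod1 fell just short of the GC limit (49.8%) and Zic1 still met both.

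The Zic sites each held 2 long, perfectly alternating CT tracts (GA on the opposite strand). This search was added after the Zic4 sequence had been seen. At Zic4 the tracts of 51 bp (91367967 to 91368017) and 57 bp (91368071 to 91368127) lay to the right of the summits. The first began 10 bp (replicate 1) and 19 bp (replicate 2) beyond them, and the second 114 and 123 bp. At Zic1 the tracts of 40 bp (91365506 to 91365545) and 36 bp (91365546 to 91365581) were adjacent, and the first began 61 and 19 bp from the summits. The Zic summits of both replicates were thus beside a tract and not in it. At Neurod1 no tract of at least 20 bp was found within 200 bp of the summit.

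Tracts of at least 20 bp occurred in 400 bp at 38 of the 301 nuclear sites (12.6%) and at 156 of 21933 protein-coding TSSs (0.711%). The share of TSSs was 1.32% with tracts of at least 12 bp and 0.388% in windows of 200 bp, and that of sites was 13.0% and 12.0%. At each of the 38 sites the longest tract was at least 40 bp, and the median distance from a summit to the nearest tract was 10 bp. Of the 38 sites, 19 had a peak in both replicates, against 87 of all 301 nuclear sites. The median mean fold was 6.62 at the 38 sites, against 5.68 at the sites without a tract. It was 6.64 at the 89 merged sites with a peak in both replicates, against 5.68 over all 303. Whether folds differed between sites of equal replicate support was not tested. The 38 sites include both Zic sites, and the Zic4 sequence had been seen before the search. The share of sites with a tract was larger than that of TSSs with one, a difference that was not tested. The windows lay at summits for sites and at starts for TSSs, and some sites with a tract had no TSS within 1000 bp. The shares therefore come from unlike positions, and tracts elsewhere in the genome were not analysed here. Neurod1 was one of the sites without a tract.

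**Figure D4:**
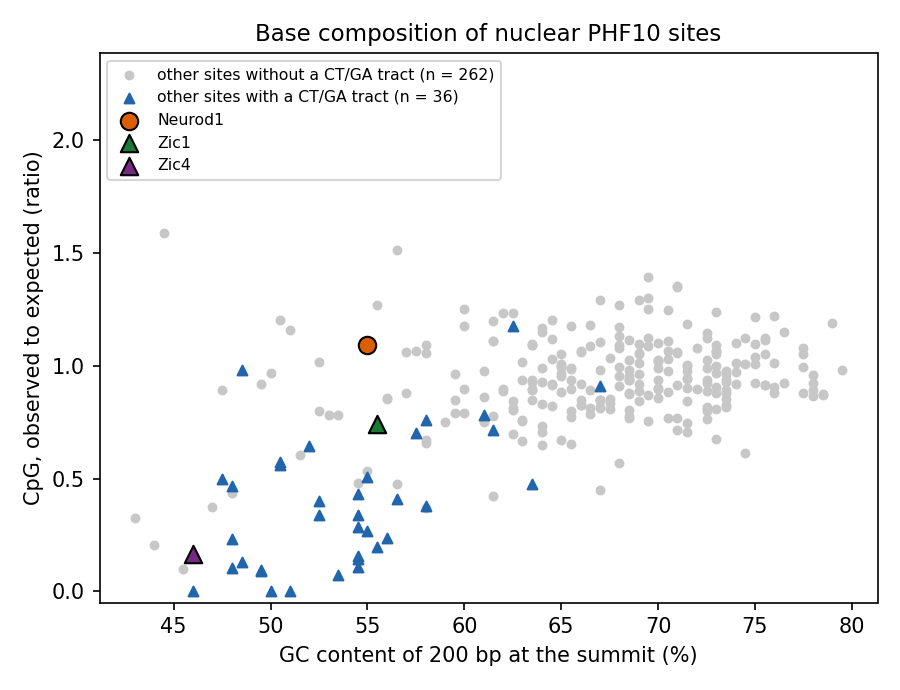
GC content (x axis, percent) and observed to expected CpG (y axis, ratio) of 200 bp at the summit of each nuclear PHF10 site, with sites holding a CT/GA tract as triangles and those without as circles. Zic4 lies in the corner of low GC content and low CpG (46% and 0.164) among other sites with a tract, Zic1 at 55.5% and 0.744, and Neurod1 at 55% and 1.09 among sites without one.

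Only reads with a single alignment were kept in the study, and tracts of this kind recur in the genome. Every stretch of 100 bp, the read length, within the 3 sites occurred once in the genome by exact match. Of stretches of 50 bp, 61.5% were found once at Zic4, 88.9% at Zic1 and 100% at Neurod1, and the most repeated stretch at Zic4 had 205369 copies, counted on both strands with overlaps. Reads shortened by trimming, or aligned with mismatches, could therefore be placed less surely at Zic4 than at Neurod1, and the part of this in the fold at Zic4 was not tested. The IgG background there, given above, was at most 2.00 fragments. This value cannot fall below the genome-wide level, and how reads were placed over the tracts was not tested.

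Motifs were searched for on both strands in the same 200-bp windows, with their shares over sites and protein-coding TSSs as background. The E-boxes CAGATG, a form bound by NeuroD factors, and CAGCTG were found at none of the 3 sites, against 4.98% and 9.30% of sites and 9.48% and 12.3% of TSSs. CAGCAG, the core of the motif bound by ZIC proteins, was also found at none, against 19.6% of sites and 25.8% of TSSs. Neither the canonical TATAAA (8.64% of sites) nor the cAMP response element TGACGTCA (3.99% of sites) was present. At these shares, 3 windows are too few to tell an absence from the background. The Neurod1 window held 1 TATATA, a form present at 3.32% of sites and 3.20% of TSSs. This match lay 31 to 26 bp upstream of the RefSeq start but downstream of the GENCODE start, within the transcribed bases. The window also held 1 GC box, GGGCGG, present at 49.2% of sites and 40.2% of TSSs. The Zic1 window held 1 CCAAT, found at 15.6% of sites and 26.7% of TSSs, but this match lay outside the called peaks, and the whole merged Zic1 site held 1 GGGCGG beyond the window. The matches did not overlap each other, and the Zic4 window matched none of these letters. TATATA was added to the search after the Neurod1 sequence had been seen.

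The genes of related factors were then looked up within the same 1000 bp. Over all 21951 protein-coding genes, 308 had a site of either replicate (1.4%), and 89 had a site called in both (0.405%). In the ZIC family, Zic1 and Zic4 had a site, as fixed by the choice of members, and Zic2 and Zic5 had none. Of 18 proneural and neuronal bHLH genes, Neurod1 had a site, which was likewise fixed by the choice of members. Of the other 17, among them Neurod2, Neurod6, Atoh1 and the neurogenin genes, 0 had a site. Of 10 genes of bHLH partners and antagonists, such as the E-protein genes Tcf3, Tcf4 and Tcf12 and the Id genes, 0 had a site. Peaks below the threshold of the caller are not listed, so weaker occupancy at these genes was not detectable.

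Of 23 transcription factor genes of the cerebellum, 7 had a site, but 3 of these were the members, whose sites were fixed by their choice. Of the other 20, 4 had a site, 2 of them in both replicates, against 1.4% and 0.405% of all protein-coding genes, and the list was written with results of these data known. Nfia and Nfix, nuclear factor I genes of granule neuron maturation, had mean folds of 8.69 ± 3.83 and 8.40 ± 0.105 (SD, n = 2). The folds of Nfix, 8.47 and 8.32, were between those of Zic1 and Zic4 in both replicates, whereas Nfia varied from 5.99 in replicate 1, near Zic1, to 11.4 in replicate 2, above Zic4. Pax6, a paired-box gene of granule neurons, had a peak in replicate 1 alone, with a fold of 6.44 and 845 bp from the nearest TSS, and the homeobox gene Uncx likewise, with a fold of 5.93. These 4 sites resembled the Zic sites in part, since CT or GA tracts of at least 20 bp were present at Nfia, Nfix and Pax6 and not at Uncx. Hence 3 of these 4 sites held a tract, against 12.6% of all nuclear sites, a difference that was not tested.

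Of 24 transcription factor genes of the forebrain, such as Tbr1 and Emx1, 0 had a site. Among markers of neurons, 1 of 15 had one, Rbfox3, which encodes the nuclear protein NeuN, with folds of 7.20 and 6.48 and a tract of 66 bp. For markers of astrocytes, oligodendrocytes, microglia and endothelial cells the count was 0 of 8 in each list. At a background of 1.4%, lists of 8 to 24 genes hold too few to tell a count of 0 from the share over all genes. This includes the forebrain list and the bHLH lists above. Occupancy of a marker gene is not its expression, so these counts do not check the tissue.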

How the data were processed

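PHF10 and IgG immunoprecipitations of mouse brain were sequenced as single-end reads of 100 bp. Per the study's methods and processing notes, the authors trimmed reads with Cutadapt, aligned them to mm10 with Bowtie 1, kept reads with 1 alignment, removed duplicates with Picard and called peaks per replicate with MACS2 against IgG, with reads extended to 200 bp and blacklisted regions removed. The deposited lists give for each peak a score (−log10 p scaled and rounded down, not analysed further), a fold over background, which is a ratio with 1 added to both terms, and −log10 p and −log10 q values. The IgG library entered only through these values.

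Peaks sharing at least 1 bp were merged in Python 3.11.15 with pandas 2.3.3, numpy 2.4.6, numba 0.67.0 and scipy 1.17.1, and plotted with matplotlib 3.10.9. Fragments at each summit were solved from the fold and p, a step tested on simulated data. Their number per summit sets the precision, and total read counts were not used here. TSSs were those of 141767 GENCODE M21 transcripts, and RefSeq GRCm38.p6, the same build as mm10, supplied sequence and alternative TSSs. The promoter sequences supplied for all 3 genes matched this genome. No test was run, because the members were chosen by their peaks and there is 1 condition. The spread of n = 2 covers these samples only.

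The members, gene lists and motifs were chosen with earlier results of these data known. Genes named are the members, genes with a TSS within 1000 bp of their sites, list genes with a site, the next site on each side and sites adjacent in mean fold. The genes of the other close site pair, and list genes named without a site, were chosen after their values were seen. Some genes that meet this rule are not reported here.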

Additional observations from a re-analysis of the deposited data

How the results depend on the processing

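The number of member genes with a site stayed at 3 under all 10 alternatives, which covered windows of 200 and 5000 bp, the summit in place of the peak, protein-coding TSSs, stricter p and q limits, sites of both replicates, RefSeq TSSs and each replicate left out. The reported count was fixed by the choice of members, and the wider window could not lower it. The number of sites shared by Zic1 and Zic4, 0 as reported, became 2 with a window of 5000 bp and 1 with RefSeq TSSs that include predicted models, and stayed at 0 without either replicate. Without the added 1, the ratio at the summit was 9.26 at Zic1, 15.0 at Zic4 and 7.95 at Neurod1, by construction larger than the fold. Leaving out a replicate gave folds of 5.93 to 6.79 at Zic1, 9.65 to 10.8 at Zic4 and 5.40 to 5.87 at Neurod1. Transcription factor genes with a site numbered 7, or 5 to 7 under the alternatives, with 5 without replicate 1, since Pax6 and Uncx had a peak in replicate 1 alone. Sites with a tract numbered 36 to 39 under limits of 12 and 40 bp and a window of 200 bp, chosen after seeing the data, and the share of TSSs ranged from 0.388% to 1.32%. No paired analysis was possible because a single group had peak lists. Summits held 19 to 41 fragments, which limits the comparison of folds between members.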
